A study of Mus musculus with 6 samples.

Results

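The miR-26 family was read by 3 reporters, mmu-miR-26a, mmu-miR-26b and mmu-miR-26b*, of the 1078 mouse microRNA (miRNA) reporters on each array. They were chosen by reporter name, for the known part of miR-26 in SMAD signalling and in the differentiation of vascular smooth muscle cells (VSMCs), which contract the wall of arteries. The names follow an older convention in which the starred form is the other arm of the same hairpin. Cultures treated with TNF-α, an inflammatory cytokine (n = 3), were compared with untreated cultures (n = 3), to ask which miRNAs differ between them. All 6 were independently grown VSMC cultures, harvested after several passages, and came from C57BL/6 mice, from the abdominal aorta at an age of 8 weeks. For the dose and duration of TNF-α and the animals behind each culture, the sources used here give nothing.

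miRNAs are short RNAs that pair with messenger RNAs, mainly through their seed (bases 2 to 8), and lower their output. The miR-26 hairpins lie inside genes of the CTDSP family, which encode small phosphatases that act on the tail of RNA polymerase II and on SMAD proteins, the transcription factors of TGF-β and BMP signalling. In human VSMCs, miR-26a is known to repress SMAD1 and SMAD4, to favour growth and migration, and to hold back differentiation.

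The mature sequences are shown from 5′ to 3′ with the seed in capitals, because they decide which reporters read the same kind of miRNA and how far the members differ. They are from RefSeq on build GRCm38.p6, where all 3 reporter names were matched.
mmu-miR-26a: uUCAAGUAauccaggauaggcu
mmu-miR-26b: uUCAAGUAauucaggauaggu
mmu-miR-26b*: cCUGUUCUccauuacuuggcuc
mmu-miR-26a-2*: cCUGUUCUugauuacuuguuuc
mmu-miR-26a-1*: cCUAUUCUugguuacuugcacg

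mmu-miR-26a and mmu-miR-26b share the seed UCAAGUA, which no other mature miRNA of the 1679 names in that table has. Counted from the 5′ end, with the base of mmu-miR-26a first, they differ by C11U and C21U over 21 compared positions, and mmu-miR-26a is 22 bases long against 21 for mmu-miR-26b. Both differences lie outside the seed. mmu-miR-26b* has another seed, CUGUUCU, which it shares with mmu-miR-26a-2* and with the mature miRNAs mmu-miR-6932-3p and mmu-miR-7039-3p, neither of which had a reporter, while mmu-miR-26a-1* has the seed CUAUUCU. mmu-miR-26a-1* and mmu-miR-26a-2* are the other arms of the mmu-miR-26a hairpins and had reporters, but were not part of the named members. How far the reporters of mmu-miR-26a and mmu-miR-26b read each other's miRNA was not tested.

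mmu-miR-26a has 2 sources with the same mature sequence, so its reporter cannot tell them apart. The mature miRNA lies at chr9:119031811-119031832 in Mir26a-1, on the plus strand and within the bounds of Ctdspl, and at chr10:126995543-126995564 in Mir26a-2, on the plus strand and within the bounds of Ctdsp2. mmu-miR-26b at chr1:74394324-74394344 and mmu-miR-26b* at chr1:74394360-74394381 come from the hairpin Mir26b, on the plus strand within the bounds of Ctdsp1. The annotation used gives gene bounds only, so intron or exon is not stated. The 2 other arms lie at chr9:119031850-119031871 and chr10:126995581-126995602.

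Values are median densities, the linear brightness of a reporter in scanner units, with background included. Each array was given a background limit, 3 SD above the mode of its densities with the SD taken from the side below that mode, which was 116 to 127 on TNF-α arrays and 88.2 to 102 on control arrays. It was exceeded by 240 to 253 reporters on TNF-α arrays and by 306 to 339 on control arrays. The background peak was also higher on every TNF-α array, at 81.2 to 90.1 against 66.0 to 76.1 on control arrays, so TNF-α and any technical difference that separates the 2 sets of arrays cannot be told apart. The VSMC miRNAs miR-143 and miR-145 were above the limit on all 6 arrays. Of the 5 blood cell markers 4, and of the 7 striated muscle markers on the array 5, exceeded it on no array, nor did the endothelial miR-126-5p or the liver miR-122. The endothelial miR-126-3p exceeded it on all 6, at densities of 117 to 144 with TNF-α and 119 to 157 in controls, and so did the striated muscle miR-206, at 168 to 199 with TNF-α and 237 to 277 in controls. Precision is limited by the number of arrays.

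mmu-miR-26a, which comes from both Mir26a hairpins, was far above background in every culture and did not pass the test for a change with TNF-α. Its density was 7824, 7608 and 7454 on TNF-α replicates 1, 2 and 3, against 6598, 8647 and 4545 on control replicates 1, 2 and 3. The TNF-α values lay close together and inside the range of the control values, of which replicate 2 was the highest of all 6 arrays and replicate 3 the lowest. The mean was 7629 ± 186 in TNF-α cultures and 6597 ± 2051 in control cultures (SD, n = 3 each). After normalization the change was 0.18 ± 0.12 on the log2 scale (SE, TNF-α over control), which is 1.13-fold with a 95% interval of 0.93 to 1.37 (adjusted p = 0.340 by limma).

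mmu-miR-26b, which has the same seed, was also above background in every culture and did not pass. Its density was 487, 486 and 421 with TNF-α, against 493, 606 and 455 in controls, in the order of the replicates. The ranges overlapped, with control replicate 2 highest and TNF-α replicate 3 lowest. The mean was 465 ± 37.7 in TNF-α cultures and 518 ± 78.7 in control cultures (SD, n = 3 each). The normalized change was -0.03 ± 0.07, which is 0.98-fold with a 95% interval of 0.87 to 1.10 (adjusted p = 0.760 by limma).

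mmu-miR-26b*, the minor arm of the Mir26b hairpin, was at background on 5 of 6 arrays. Its density was 77.6, 87.4 and 72.2 with TNF-α, each below the limit of its array, against 65.2, 83.7 and 127 in controls. The single value above a limit was that of control replicate 3, where the limit was 88.2. The reporter therefore missed the filter for testing, a corrected density of 32 on at least 3 arrays, which it reached on 1 TNF-α array and 1 control array. No fold is given, because the bound that the limits allow was under 1. Fitted without the filter its change was -0.41 ± 0.23 (adjusted p = 0.272 over 1078 reporters by limma), and -0.09 when control replicate 3 was left out. The other arms mmu-miR-26a-1* (79.5 to 98.8 with TNF-α, 62.5 to 82.2 in controls) and mmu-miR-26a-2* (70.8 to 87.7 with TNF-α, 62.2 to 78.6 in controls) were above the limit on no array.

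**Figure D1:**
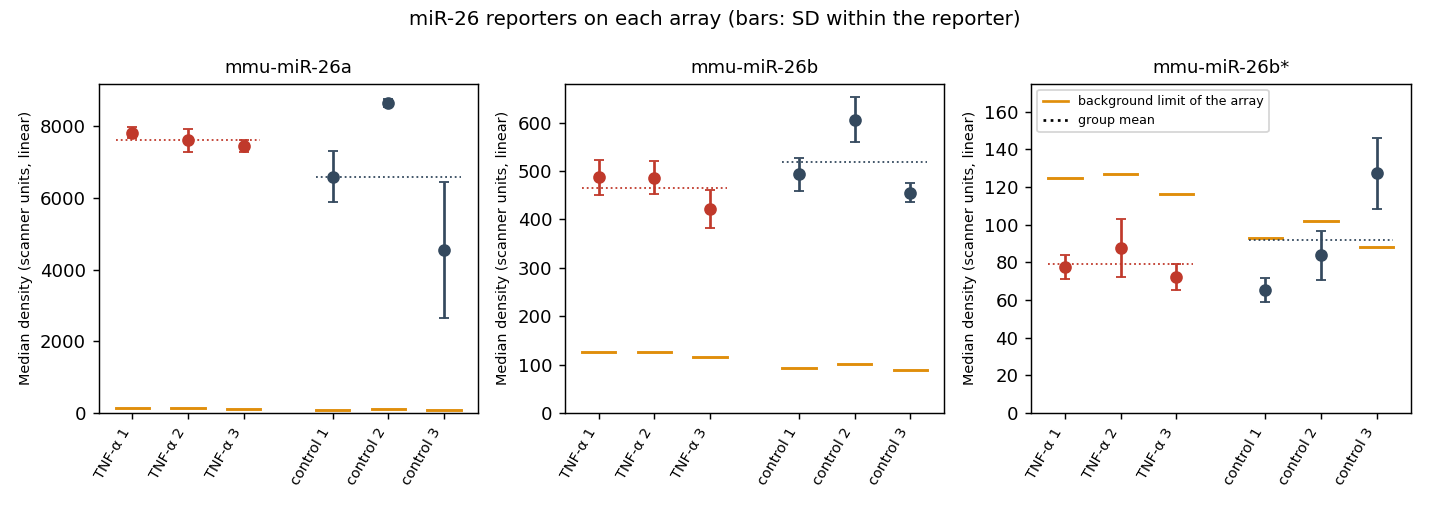
Median density in scanner units (linear axes from 0) of each miR-26 reporter on the 3 TNF-α and 3 control arrays; bars are the SD within the reporter that the files give, orange lines the background limit of each array and dotted lines the group means. mmu-miR-26a ran from 7454 to 7824 with TNF-α and from 4545 to 8647 in controls, and mmu-miR-26b* passed its limit on control replicate 3 alone.

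Among the members 2 of 3 were tested and 0 of those 2 passed, at unadjusted p of 0.179 and 0.647. Over all miRNAs tested, limma called 146 of 642 (22.7%) at an adjusted p under 0.05, 12.9% as higher and 9.81% as lower with TNF-α. On the normalized scale the groups did not overlap for 40% of tested miRNAs, and they overlapped for both tested members. The filter can be met by the arrays of 1 group alone, which bears on these shares. It left 500 tested without any 1 TNF-α array and 614 to 626 without 1 control array. Required on all 6 arrays, it left 339 tested, of which 50 passed as higher and 58 as lower. The 146 called changes had a median size of 0.38 on the log2 scale, and the changes of all 642 had a median of 0.0078. The interval of mmu-miR-26a includes a rise of that size, and that of mmu-miR-26b includes neither a rise nor a fall of it. Other processing widened the interval of mmu-miR-26b to include such a fall. Its lower end was -0.41 with no normalization, -0.43 with median scaling and -0.42 from the authors' processed intensities. It was -0.51 with no normalization and without control replicate 3, and under the remaining alternatives it did not reach that size.

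The values of mmu-miR-26a differed more between control arrays than between TNF-α arrays. Each culture had a single array, so differences between cultures and between arrays cannot be told apart. On the normalized log2 scale its SD was 0.10 in TNF-α cultures and 0.24 in control cultures (n = 3 each), where the medians over the 642 tested miRNAs were 0.10 and 0.09. Of the tested miRNAs, 295 had a larger SD than mmu-miR-26a in TNF-α cultures and 12 did in control cultures. For mmu-miR-26b the SD was 0.04 with TNF-α and 0.09 in controls, with 573 and 322 tested miRNAs above it. Whether the spread itself differs between the groups was not tested.

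The files also give a standard deviation within each reporter, and mmu-miR-26a stood out by it on control replicate 3. There it was 1907 at a density of 4545, or 41.9%, the largest share among the 330 reporters above the limit of that array. The next largest was 24.5%, and among the other 77 reporters with a density of at least 1000 it was 9.78%. On the TNF-α arrays the share was 2.08%, 4.16% and 2.21%, and on control replicates 1 and 2 it was 10.6% and 1.28%. The share on control replicate 1 was also high for so bright a reporter. Among the other 85 reporters of at least 1000 on that array, the median was 3.38% and the largest 18.1%. For mmu-miR-26b the share ran from 7.01% to 9.47% with TNF-α and from 4.24% to 7.62% in controls, and on control replicate 3 it was lowest. The lowest mmu-miR-26a density of the series is thus also the one whose readings within the reporter agreed least. How many readings lie behind a reporter is not given in the sources used here, and the part of this in the result was not tested beyond leaving the array out.

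**Figure D2:**
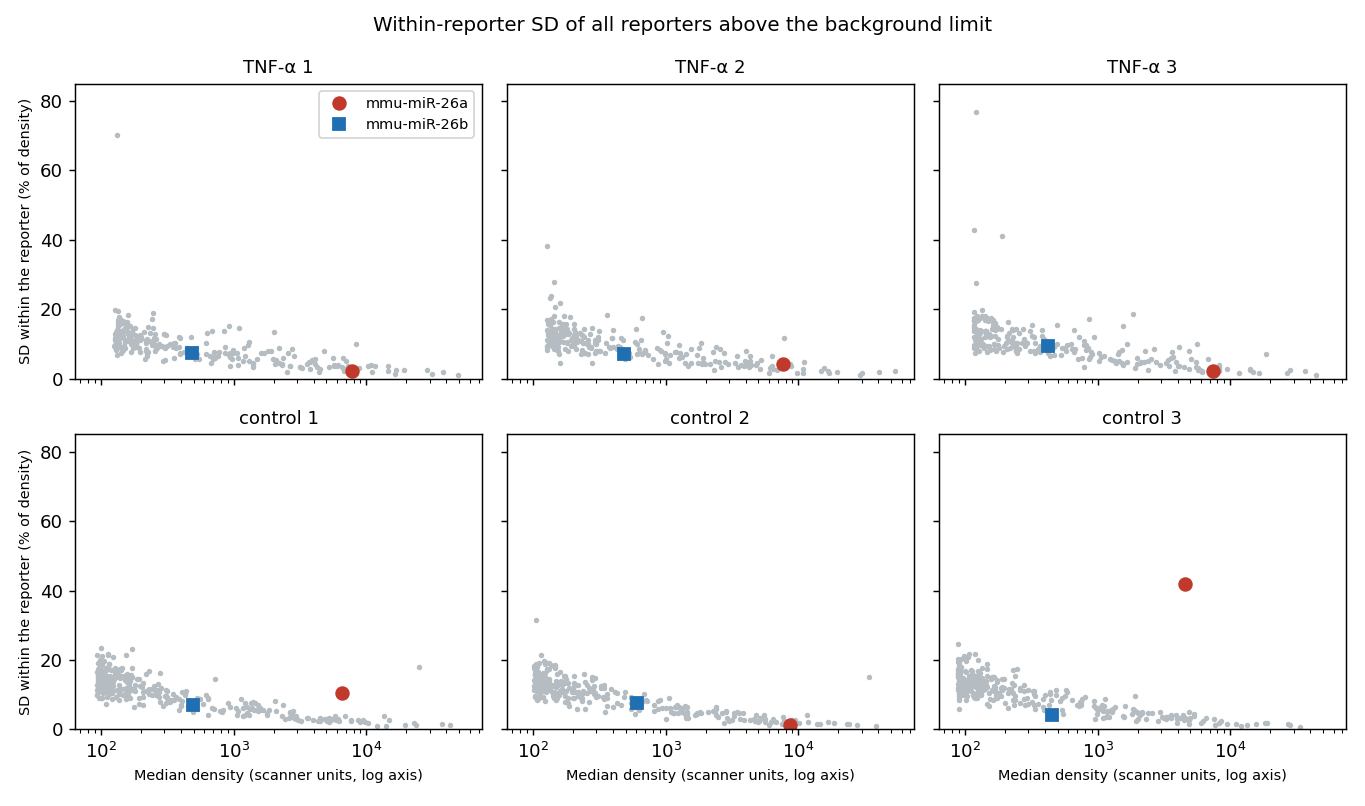
SD within the reporter as a percent of its density, against density in scanner units (log axis), for all reporters above the background limit on each array; red circles are mmu-miR-26a and blue squares mmu-miR-26b. On control replicate 3 mmu-miR-26a lies at 41.9%, above every other reporter of that array, whereas on the TNF-α arrays it lies at 2.08% to 4.16%.

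Without control replicate 3, the control densities of mmu-miR-26a were 6598 and 8647, with a mean of 7622, beside 7629 in TNF-α cultures. The ratio of TNF-α to control mean density was then 1.00, against 1.16 with all arrays. The normalized change was 0.06 without that array (adjusted p = 0.739 by limma), and 0.29 without control replicate 2, the brightest array for mmu-miR-26a (adjusted p = 0.115). For mmu-miR-26b the same 2 omissions gave -0.031 and 0.015.

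Quantile normalization gives each rank 1 value on every array, and mmu-miR-26a held rank 16 on TNF-α replicates 1 and 3 and on control replicate 2. Its normalized value was therefore 12.89 on all 3 of these arrays, although the densities were 7824, 7454 and 8647. It held rank 18 on TNF-α replicate 2 and ranks 19 and 25 on control replicates 1 and 3. mmu-miR-26b held ranks 103 to 105 with TNF-α and 101 to 106 in controls.

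Since mmu-miR-26a and mmu-miR-26b share a seed, the question of whether they moved unequally was asked within each array, from the log2 value of mmu-miR-26a minus that of mmu-miR-26b. This difference says nothing of which miRNA is more abundant, since reporters differ in brightness. It was 3.95, 3.80 and 4.02 on TNF-α replicates 1, 2 and 3, against 3.81, 3.86 and 3.47 on the control replicates, and the groups overlapped. The mean was 3.92 ± 0.11 with TNF-α and 3.71 ± 0.21 in controls (SD, n = 3 each), a difference of 0.21 in favour of mmu-miR-26a. An exact two-sided permutation test gave p = 0.3, where the smallest p that 3 against 3 arrays allow is 0.1.

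Without normalization between arrays, the groups separated. They also separated after cyclic loess and from the authors' processed intensities, and median scaling leaves this difference as it is without normalization. Without normalization the difference was 4.03, 3.98 and 4.14 with TNF-α, against 3.75, 3.84 and 3.31 in controls. The mean was 4.05 ± 0.08 with TNF-α and 3.63 ± 0.29 in controls, a difference of 0.42 (exact two-sided permutation p = 0.1, the smallest the design allows, so no call can be made). Leaving out control replicate 3 as well reduced the difference to 0.25, with both remaining control values still below the 3 TNF-α values. Each reporter's own change without normalization was 0.26 for mmu-miR-26a and -0.16 for mmu-miR-26b, beside a median of 0.14 over the 642 tested.

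**Figure D3:**
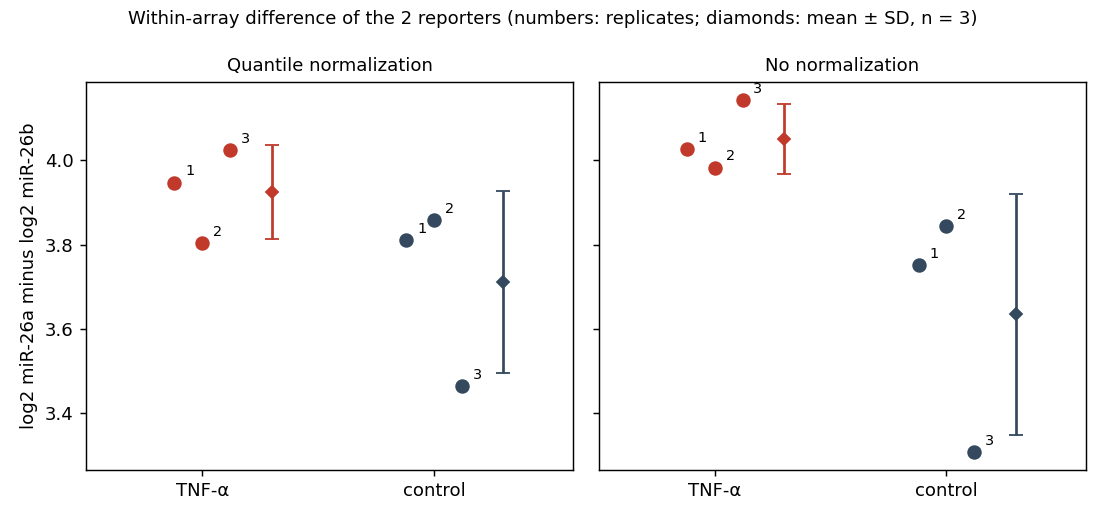
Log2 value of mmu-miR-26a minus that of mmu-miR-26b on each array with quantile normalization (left) and with no normalization between arrays (right); points are arrays with their replicate number, diamonds and bars the mean ± SD (n = 3). Control replicate 3 is lowest in both panels, and the groups overlap on the left and not on the right.

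The miRNAs whose pattern over the 6 arrays was most like that of mmu-miR-26a, among 207 tested reporters above the limit on all arrays, were miR-574-5p (Pearson r = 0.90), miR-34c* (0.86) and miR-692 (0.80). These values rest in part on control replicate 3, without which they were 0.64, 0.69 and 0.44. Most like mmu-miR-26b were miR-125a-3p (0.98), miR-467c* (0.92) and miR-126-3p (0.87), and without control replicate 3 they were at 0.99, 0.95 and 0.97. The reporters share their arrays and normalization, and were ranked for likeness, so these values are a description. mmu-miR-26a and mmu-miR-26b correlated at 0.17 with each other on the same scale and at 0.48 in log2 density.

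Other miRNAs known to act on SMAD or TGF-β signalling were called about as often as all tested, but were more often above background. Of 28 on a list of them, 25 were tested and 6 passed (24%, beside 22.7% of all 642). The background limit was exceeded on at least 3 arrays by 20 of the 25, beside 293 of the 642. With that limit as the filter limma called 109 of 293, so the shares do not compare reporters of like brightness. Of the 25, 4 passed as higher (16%, beside 12.9%) and 2 as lower (8%, beside 9.81%), with a median change of 0.017 over the 25 beside 0.0078 over all tested. The 4 higher were miR-29b (0.60 ± 0.08, adjusted p = 0.00227) and miR-29c (0.43 ± 0.10, adjusted p = 0.0175), which repress collagen mRNAs, miR-199a-5p (0.42 ± 0.08, adjusted p = 0.0102) and miR-130a (0.28 ± 0.07, adjusted p = 0.0237), all by limma. The 2 called lower were miR-98 (-0.37 ± 0.11), of the let-7 seed family, and miR-155 (-0.27 ± 0.07), both named after their values were seen. miR-155 was above background on no array, so no direction is read from its value. Of 17 alternatives, the call of miR-29b held in 17, those of miR-199a-5p and miR-29c in 13, that of miR-98 in 8 and that of miR-130a in 5, while that of miR-155 held in 7 of the 14 in which it was tested. With median scaling miR-130a was at -0.013 and miR-199a-5p at 0.21. Leaving out control replicate 1 ended the calls of miR-29c, miR-130a, miR-155 and miR-98. Control replicate 3, TNF-α replicate 1 or TNF-α replicate 2 ended those of miR-130a and miR-98, control replicate 2 those of miR-155 and miR-98, and TNF-α replicate 3 those of miR-130a and miR-155. TNF-α replicate 1 also ended that of miR-155. Calls may be false more often than the threshold states, and whether this depends on their size was not tested.

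Among miRNAs tied to the growing or contractile state of VSMCs, 17 of 21 listed were tested, 0 passed as higher (beside 12.9% of all tested) and 2 as lower (11.8%, beside 9.81%), with a median change of -0.037 beside 0.0078. By limma's unadjusted p under 0.05, 0 of the 17 were higher and 3 lower, beside 18.7% and 16.8% of all 642. The background limit was exceeded on at least 3 arrays by 13 of the 17, beside 293 of the 642. These shares too do not compare reporters of like brightness. The 2 that passed were miR-145* (-0.51 ± 0.08, adjusted p = 0.00496) and miR-322 (-0.25 ± 0.07, adjusted p = 0.0355), both by limma. miR-145* was above background on 1 control array only and miR-322 on control arrays only, so neither has a fold. The bound that the limits allow was under 1 for both. The mean density of miR-322 was 102 with TNF-α and 106 in controls, and the limits were higher on TNF-α arrays. miR-145* entered the test through its control arrays, as it missed the filter with any 1 of them left out. No direction is read from the values of miR-145* and miR-322, although they are the 2 counted as lower. miR-146b (-0.22 ± 0.08) and miR-21 (-0.18 ± 0.09), whose maturation SMAD proteins promote in human VSMCs, did not pass. Of 17 alternatives, miR-146b was called lower in 3, which were median scaling, the processed intensities, and no normalization without control replicate 3. miR-21 was called lower in 1, without control replicate 1, and its change was positive in 4. miR-21 was 0.076 without normalization, and the call of miR-322 was lost with any 1 array left out. Among the markers of VSMCs, miR-145 (0.17 ± 0.09) and miR-143 (-0.05 ± 0.09) did not pass. Among markers of other tissues, striated muscle miR-206 was lower (-0.49 ± 0.07, adjusted p = 0.00339 by limma). Liver miR-122 passed the test (-0.26 ± 0.06, adjusted p = 0.0225), but it was above background on no array, and no direction is read from that value. Its call held in 8 of 14 alternatives, was lost without control replicate 2, control replicate 3 or TNF-α replicate 2, and its value was -0.070 with no normalization. The endothelial miR-126-3p (-0.17 ± 0.10), the blood miR-150 (-0.16 ± 0.12) and the striated muscle miR-133a and miR-133b (-0.037 and -0.062) did not pass. The part of other cell types in the miR-26 values was not tested.

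In the authors' deposited processed table, mmu-miR-26a was 7740, 7525 and 7692 with TNF-α and 6528, 7916 and 4675 in controls. mmu-miR-26b was 403, 400.1 and 358 with TNF-α, against 424, 499 and 413 in controls, and there the groups did not overlap. Nor did they for 55.8% of the 285 miRNAs tested in that table, and TNF-α was the lower group for 36.1%. mmu-miR-26b* was at the floor of 0.01 on 2 TNF-α arrays and 1 control array, with a highest value of 65.1 on control replicate 3. Tested in that table with 32 added, the changes were 0.30 for mmu-miR-26a (adjusted p = 0.156) and -0.18 for mmu-miR-26b (adjusted p = 0.169), both by limma, beside a median of -0.12 over the 285 miRNAs tested.

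**Figure D4:**
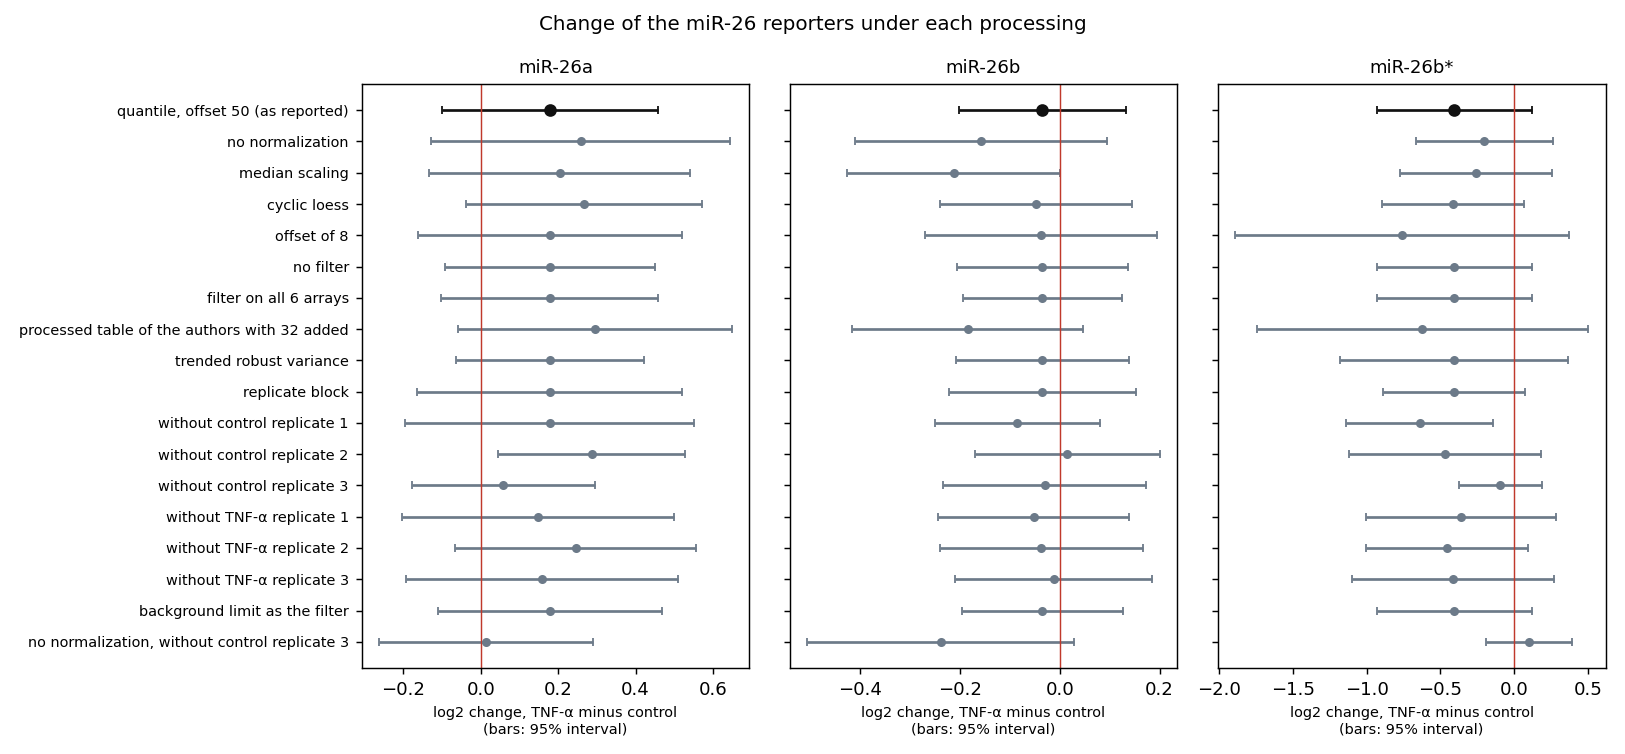
Change of each miR-26 reporter on the log2 scale (TNF-α minus control) with its 95% interval under the reported processing and 17 alternatives; the red line marks no change. The estimates of miR-26a ran from 0.014 to 0.30 and those of miR-26b from -0.24 to 0.015, and miR-26b* lies at background on 5 of 6 arrays.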

How the data were processed

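Per the labels' protocols, total RNA of each culture was poly(A)-tailed, ligated to a tag and stained with Cy5, so each array has 1 colour. The authors deposited 1 median density and 1 SD per reporter, linear intensities by the file headers, and a table of processed intensities, whose scaling and background step stay unknown and whose floor was 0.01. The members and lists were chosen with earlier results of these data known.

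In limma 3.58.1 (R 4.3.3), densities had their background corrected by normexp with 50 added, and log2 values were then quantile normalized. A reporter was tested where its corrected density reached 32 on at least 3 arrays. limma's moderated test, with the group as its only term, was two-sided and adjusted by Benjamini-Hochberg over all tested reporters at 0.05. The offset understates changes of dim reporters. A difference between 2 reporters was tested by exact permutation over arrays.

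Named are the members, the other arms of their hairpins, the 4 tested miRNAs of smallest p in each list, marker lists included, and the 3 above background on every array with the highest correlation to each member. The fit was tested on simulated data. Where no change was put in, it made no call. Where many were put in, it recovered nearly all but also called unchanged reporters, more than the threshold allows, and the cause was not tested. The changes put in were of a single size, larger than the median called change here and than those of the members. They were placed in brighter reporters only, so recovery of smaller changes was not tested. The requirement on false calls was then kept only for data without changes, so the adjusted p-values here may be too small. Replicate numbers are those that the titles end in; 2 TNF-α descriptions both say the third of 3. Groups come from the treatment label. The p-values set a change against the spread between arrays of separately grown cultures, which holds both culture and array differences.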

Additional observations from a re-analysis of the deposited data

How the results depend on the processing

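No call of mmu-miR-26a or mmu-miR-26b was gained under any of 17 alternatives. The change of mmu-miR-26a was positive in all 17, but those that alter only the filter, the variance model or a replicate block cannot move it. It ran from 0.014 (no normalization, without control replicate 3) to 0.30 (the processed table), at adjusted p of 0.115 to 0.943 by limma. With 1 array left out it ran from 0.058 to 0.29. mmu-miR-26b ran from -0.24 to 0.015, at adjusted p of 0.119 to 0.953, and from -0.085 to 0.015 with 1 array left out; it was positive without control replicate 2 alone. mmu-miR-26b* ran from -0.64 to -0.094 with 1 array left out, was -0.76 with an offset of 8, and turned to 0.10 with no normalization and without control replicate 3. The difference between mmu-miR-26a and mmu-miR-26b ran from 0.089 to 0.28 with 1 array left out, and was 0.31 with cyclic loess, 0.42 with median scaling or no normalization and 0.48 from the processed intensities. Called miRNAs numbered 146, and 70 to 91 with 1 array left out, when 500 to 626 were tested.

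The replicate block left 103 calls, and the change of mmu-miR-26a at 0.18 (adjusted p = 0.399). Arrays of the same number correlated in their deviations at 0.042, 0.016 and 0.15, and not every array correlated best with its own number, so the numbers were not taken to pair the cultures. Higher and lower calls were 83 and 63, against 163 and 41 when arrays were not normalized, 126 and 60 after median scaling and 39 and 81 from the processed intensities. Requiring the filter on all 6 arrays gave 50 and 58, and the background limit as filter 51 and 58. miR-130a was -0.013 with median scaling and -0.054 with no normalization and without control replicate 3. miR-21 was 0.076 when arrays were not normalized, 0.022 after median scaling, 0.12 from the processed intensities and 0.020 with no normalization and without control replicate 3. Causes were not tested. Leaving out control replicate 3 together with normalization, and the background limit as the filter, were chosen after seeing the data. With 3 arrays a group, a change of mmu-miR-26a up to 1.37-fold lies within its interval in the reported fit. The upper end was 0.46 there on the log2 scale, and 0.65 with no normalization or from the processed intensities. Without control replicate 2 the interval ran from 0.044 to 0.53 (adjusted p = 0.115 by limma). Without control replicate 3 it ran from -0.18 to 0.29.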
